A study of Equus caballus with 4 samples.

Results

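The mitochondrial carriers of the solute carrier family 25 (SLC25) and the uncoupling proteins (UCP), which belong to the same protein family, were examined in equine satellite cells treated with gamma-oryzanol (GO), a mixture of plant sterol ferulates from rice bran oil. The members were all non-control probes of the array whose gene name was SLC25A followed by a number, or UCP1 to UCP3, and each gene was represented by its probe with the highest mean log2 processed signal. This gave 43 genes, carried by 70 of 43603 probes, out of 13349 named genes. Satellite cells, the muscle stem cells, came from the semitendinosus muscle of young colts and were switched to differentiation medium before they were fully confluent. After day 2 of differentiation they received GO at 125 nM for 24 h, and the control cells received only the vehicle, DMSO at 0.04 μl/ml, so that both groups were harvested on day 3 and both contained DMSO. Each of 4 arrays held RNA of GO-treated cells labeled with Cy5 and RNA of control cells labeled with Cy3. The dyes were never swapped, and a dye effect on a probe therefore cannot be told apart from GO. The labels call the arrays biological replicates, while the methods say that cultures of all horses were assessed and that the cell line scoring best was then used. Whether the arrays stand for different colts or for cultures of 1 line is not given in the sources used here, and the p-values measure the spread between these arrays. RNA samples had been chosen for integrity (RIN of at least 9.2).

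The inner mitochondrial membrane is tight, and carriers of this family move metabolites across it, usually by exchanging one solute for another. ADP/ATP carriers export newly made ATP in return for ADP, the phosphate carrier supplies phosphate to ATP synthase, and the citrate, dicarboxylate, oxoglutarate and aspartate/glutamate carriers link the citric acid cycle to reactions of the cytosol. Uncoupling proteins are relatives of these carriers, of which UCP1 lets protons leak across the membrane. In skeletal muscle the ADP/ATP carrier SLC25A4 (ANT1) is the muscle and heart form, and differentiation of myoblasts into myotubes is accompanied by a growing demand for oxidative ATP supply.

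The probes of SLC25A4 and SLC25A10, which passed the thresholds for a change, are printed first, since every value below is the hybridization to one such stretch of a transcript. Each has 60 bases and is written 5′ to 3′, with positions on EquCab1 as the array files give them. The probe of SLC25A4 lay on the minus strand at chr27:24300358-24300417 and that of SLC25A10 on the minus strand at chr11:230590-230649. Capitals mark the 56 bases that a probe shares with the other 4 probes of its gene.
SLC25A4: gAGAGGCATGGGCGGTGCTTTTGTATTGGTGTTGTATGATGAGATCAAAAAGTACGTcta
SLC25A10: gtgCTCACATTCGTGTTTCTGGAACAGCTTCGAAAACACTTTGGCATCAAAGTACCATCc

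The share of non-control probes well above background was 63.5 to 68.9% for control cells and 57.4 to 67.0% for GO-treated cells, no spot was saturated, and none of the spots marked as outliers belonged to a member. Among markers of the labelled cell type, 11 of 17 myogenic gene symbols could be tested, with no probe named PAX7 or CDH15 analysed. Of the 11, 6 fell with GO (DES, MYF5, MYH3, MYH8, MYOG and NCAM1) and none rose, with a median log2 ratio of -0.40. Over all genes tested, 5.37% fell. MSTN was above 0 on all 4 arrays (mean 0.14) but did not pass. The count of 6 became 4 lower and 1 higher without the lowess dye correction, and 5 lower with normexp and loess. It was 2 with dim probes kept, 1 in a plain test of each probe's own spread and 3 without pairing the channels. With each array left out it was 4 to 9. The summed processed signal of the 11 was 233900 to 333401 in control cells and 156277 to 224572 in GO-treated cells. Most of it was ACTC1 alone, at 132548 to 199227 in control cells and 96070 to 144767 in GO-treated cells. ACTC1 was under the fold threshold (mean log2 ratio -0.33), and the sum says little about the dimmer markers. Of 8 tested fibroblast markers only PDGFRA passed, higher by 0.87 on the log2 scale (SD 0.48). Its probe was dim, with processed signals of 30.7, 23.8, 46.4 and 21.8 in control cells and 42.7, 44.3, 69.5 and 63.6 in GO-treated cells. FAP (0.24, limma, adjusted p = 0.0369) and S100A4 (0.33, adjusted p = 0.0272) were above 0 on all 4 arrays but under the fold threshold. The fibroblast sums overlapped, at 352521 to 559876 in control cells and 394835 to 541190 in GO-treated cells. This list depended on the normalization, with 5 of 8 markers higher and a median of 0.73 without the lowess dye correction, 2 higher and a median of 0.27 with normexp and loess, and 1 higher and a median of 0.08 in the deposited ratios. Without array 2 none passed. Of 7 adipocyte markers on the array, ADIPOQ, CIDEC, FABP4 and LEP were well above background on no array, whereas CIDEA fell by 0.56 on the log2 scale (SD 0.16, adjusted p = 0.00676). The summed adipocyte signal was 4475 to 5171 in control cells and 2787 to 3692 in GO-treated cells. Most of it was CIDEA alone, at 4217 to 4750 in control cells and 2553 to 3273 in GO-treated cells, so the sum adds little to that gene. PNPLA2, the other marker tested, had a mean log2 ratio of 0.04 (limma, adjusted p = 0.818), and PPARG was too dim for a test. All 5 endothelial markers were well above background on no array. None of 3 tested leukocyte markers passed in limma, 2 of them at an unadjusted p under 0.05. The part of these marker differences in the results below was not tested, and in bulk RNA a smaller share of a cell type cannot be told apart from less RNA per cell.

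Most carrier genes differed little between GO-treated and control cells. Of the 43 genes, 33 passed the filter on dim probes (well above background on all 4 arrays in at least one channel), and 3 of them passed both thresholds. These were a fold change of 1.3 or more and, after adjustment over all probes, a p no higher than 0.05. SLC25A10 and SLC25A1 rose and SLC25A4 fell, and the authors' list of identified changed genes names none of the 3. The share of 9.09% was near the background of 8.7% over all 9058 genes tested. By direction, 3.33% of all genes tested rose and 5.37% fell. By adjusted p alone 4 members passed, 12.1% beside 17.3% of all genes, and 7 had an unadjusted p under 0.05. The log2 ratios of the 33 genes ranged from -0.50 to 0.60 with a median of 0.04, beside a median of 0.003 over all genes tested. The median size of the log2 ratio was 0.09 for the carriers and 0.13 for all genes, and 18 of the 33 lay within 0.1 of no difference. The spread between arrays was alike in both, with a median SD of 0.148 for the carriers and 0.150 for all genes. The sign was the same on all 4 arrays for 14 of the 33 genes, 42.4% beside 42.3% of all genes.

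**Figure D1:**
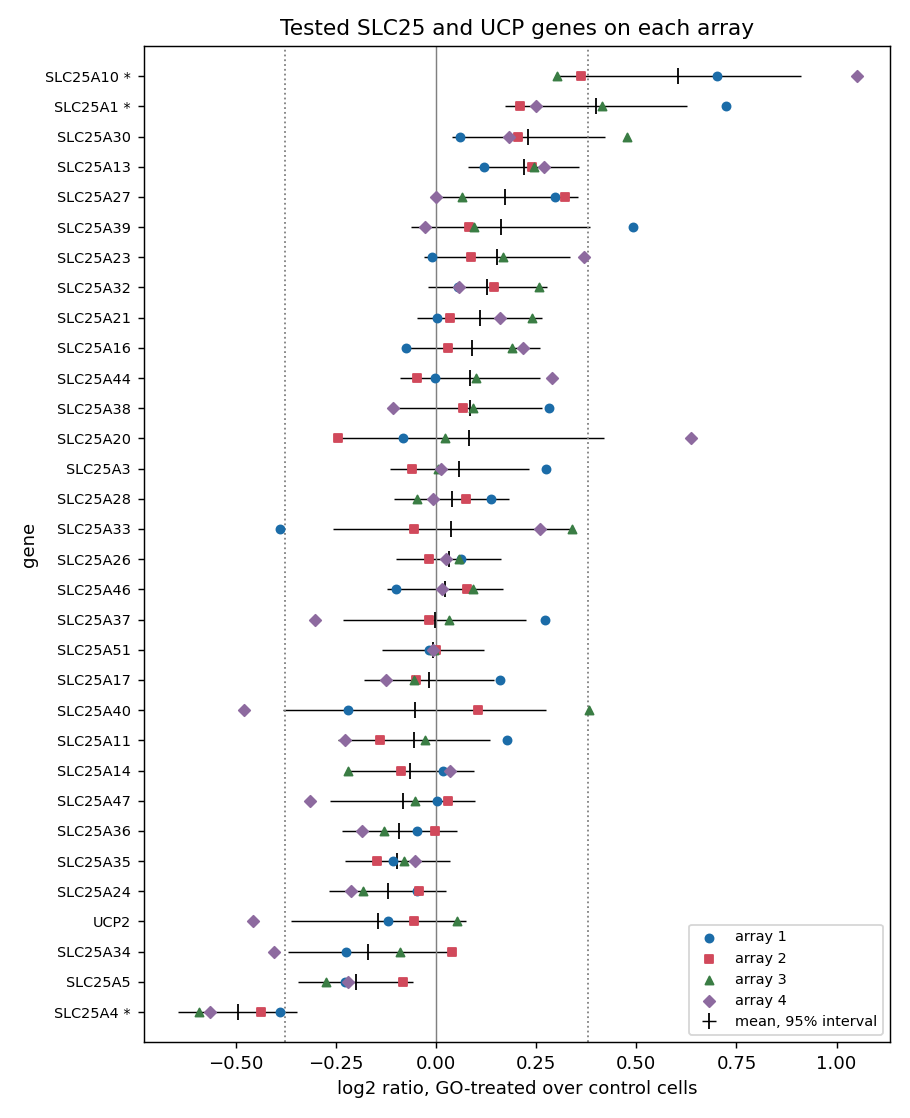
Log2 ratio, GO-treated over control (x axis), for 32 of the 33 tested SLC25 and UCP genes (y axis), with 1 point per array, a black tick for the mean and a line for its 95% interval from limma. Dotted lines mark a fold change of 1.3, asterisks the 3 genes past both thresholds. All 4 arrays of SLC25A4 lie left of the lower dotted line, while most other genes have points on both sides of 0.

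Among carriers of adenine nucleotides and phosphate, 6 of 9 were tested, and SLC25A4 was the only one to pass. The processed signal of SLC25A4 was 24433, 21157, 26518 and 22081 in control cells and 18641, 15629, 17580.1 and 14936 in GO-treated cells on arrays 1 to 4. Every GO value lay below every control value. The log2 ratios were -0.39, -0.44, -0.59 and -0.56, a mean of -0.50 (SD 0.10, n = 4), or 1.41-fold lower with GO (limma, adjusted p = 0.0059). Each array taken alone thus exceeded the fold threshold. When each probe was tested by its own spread alone, without limma's shared variance, the adjusted p was 0.0666. SLC25A5 (ANT2), the ADP/ATP carrier of proliferating cells, had log2 ratios of -0.23, -0.08, -0.28 and -0.22, below 0 on all 4 arrays. Its mean of -0.20 (SD 0.08, 95% interval -0.35 to -0.06) missed the adjusted threshold (adjusted p = 0.063). Whether SLC25A4 and SLC25A5, which have similar sequences, cross-hybridize on these probes was not tested, and no probe named SLC25A6, the third widely expressed ADP/ATP carrier, was analysed. The germ-cell ADP/ATP carrier SLC25A31 was too dim for a test, being well above background on 3 control and 2 GO channels, and its ratios were 0.38, 0.54, 0.28 and 0.50.

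The phosphate carrier SLC25A3 had log2 ratios of 0.28, -0.06, 0.01 and 0.01. Array 1 stood above the others, and the mean of 0.06 (SD 0.15, 95% interval -0.12 to 0.23) did not pass (adjusted p = 0.607). Of the calcium-regulated ATP-Mg/phosphate carriers, SLC25A23 had ratios of -0.01, 0.09, 0.17 and 0.37 (mean 0.15, adjusted p = 0.199). SLC25A24 had ratios of -0.05, -0.04, -0.18 and -0.21, with a mean of -0.12 (adjusted p = 0.204). SLC25A24 was thus below 0 on all 4 arrays and SLC25A23 above 0 on 3 of 4, neither beyond its error. SLC25A25, of the same kind, was well above background in 1 control channel and no GO channel, with ratios of 0.37, -0.28, 0.05 and -0.40, and was not tested.

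**Figure D2:**
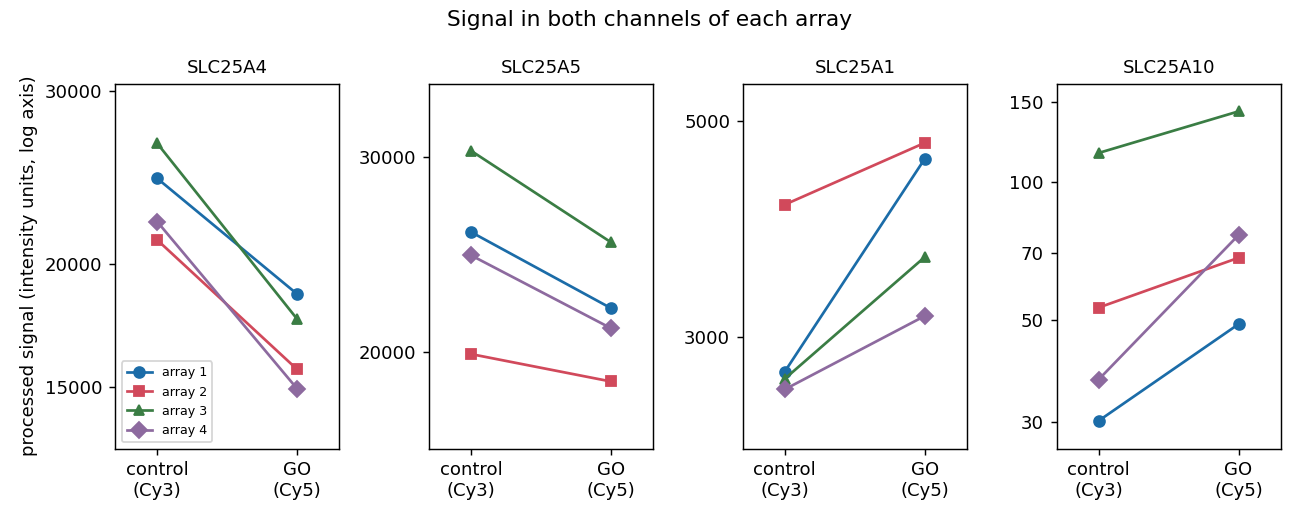
Processed signal of the probe (y axis, log scale, own range in each panel) in the control (Cy3) and GO (Cy5) channel of each array for SLC25A4, SLC25A5, SLC25A1 and SLC25A10, with a line joining the channels of 1 array. All lines fall for SLC25A4 and SLC25A5 and rise for SLC25A1 and SLC25A10, and only in SLC25A4 do the channels not overlap.

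Of the 5 genes named as carriers of carboxylates and carnitine, all were tested and 2 rose. SLC25A10, the dicarboxylate carrier, exchanges malate or succinate for phosphate. Its processed signal was 30.1, 53.2, 116 and 37.1 in control cells and 49.0, 68.4, 143 and 76.7 in GO-treated cells, and the GO channel was the higher on every array although the groups overlapped. The log2 ratios were 0.70, 0.36, 0.30 and 1.05, a mean of 0.60 (SD 0.35, n = 4) and a fold change of 1.52 (adjusted p = 0.0255). Array 4 gave the highest ratio and array 3 the lowest. SLC25A1 exports citrate, from which cytosolic acetyl-CoA for lipid synthesis is made. Its signal was 2768, 4105, 2721 and 2654 in control cells and 4574, 4749, 3627 and 3156 in GO-treated cells, giving log2 ratios of 0.72, 0.21, 0.41 and 0.25. Array 1 was the highest, and the groups overlapped through array 2 of the control. The mean was 0.40 (SD 0.23, n = 4) with a fold change of 1.32 (adjusted p = 0.0345), just above the fold threshold. Leaving out array 1 brought SLC25A1 to 0.29, under the fold threshold, and SLC25A10 to an adjusted p of 0.0746. Without array 2 the adjusted p was 0.0704 for SLC25A1 and 0.0575 for SLC25A10, without array 3 it was 0.107 for SLC25A1, and with each probe's own spread alone it was 0.164 and 0.16.

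The other 3 genes so named did not pass. SLC25A11, the oxoglutarate/malate carrier of the malate-aspartate shuttle, had ratios of 0.18, -0.14, -0.03 and -0.23 (mean -0.05, 95% interval -0.24 to 0.14, adjusted p = 0.661). The probe named SLC25A20, the symbol of the carnitine/acylcarnitine carrier, is described in the files as PRKAR2A, a regulatory subunit of protein kinase A, and which transcript it measures was not settled. It had ratios of -0.08, -0.25, 0.02 and 0.64 (mean 0.08, SD 0.39, adjusted p = 0.712). Array 4 alone was high, and GO-treated cells exceeded background clearly on only 2 arrays. The oxoadipate carrier SLC25A21 had a mean of 0.11.

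Of 7 carriers of amino acids and glutathione 5 were tested, and none passed both thresholds, with 1 at an unadjusted p under 0.05 in limma. SLC25A13 (citrin), an aspartate/glutamate carrier of the malate-aspartate shuttle, had ratios of 0.12, 0.24, 0.24 and 0.27, all above 0. Its mean of 0.22 (SD 0.07) had an adjusted p of 0.0456 at a fold change of 1.16, under the fold threshold. This value held for 1 of its 5 probes. The 5 probes overlap, each start being shifted by 1 base along the transcript, from chr4:38951063-38951122 for the first line to chr4:38951059-38951118 for the last, on the minus strand, and capitals mark the 56 bases common to all.
SLC25A13 probe at shift 0: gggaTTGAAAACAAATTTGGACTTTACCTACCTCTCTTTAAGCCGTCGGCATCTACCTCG
SLC25A13 probe at shift 1: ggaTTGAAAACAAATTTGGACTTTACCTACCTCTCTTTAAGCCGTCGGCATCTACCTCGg
SLC25A13 probe at shift 2: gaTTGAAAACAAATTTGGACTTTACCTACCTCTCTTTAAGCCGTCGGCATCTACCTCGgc
SLC25A13 probe at shift 3: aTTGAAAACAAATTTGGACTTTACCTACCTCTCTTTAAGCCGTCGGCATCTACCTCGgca
SLC25A13 probe at shift 4: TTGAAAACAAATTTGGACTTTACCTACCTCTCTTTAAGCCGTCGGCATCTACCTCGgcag
The probe at shift 4 was the one that represented the gene, having the highest signal. The means of the probes at shifts 0 to 3 were -0.01, -0.03, 0.06 and -0.01, with adjusted p-values from 0.536 to 0.966. The difference between the probes was not tested. The partner carrier SLC25A12 (aralar) was not among the gene names, but 3 probes described as SLC25A12 had means of -0.04, 0.08 and 0.07, and none passed.

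Other genes also had overlapping probes. For SLC25A4 the 5 probe means ran from -0.50 to -0.48, and all 5 passed both thresholds. For SLC25A10 they ran from 0.38 to 0.63, and all 5 passed as well, beside 8.94% of all probes tested. Since the probes of such a set share 56 of 60 bases and were hybridized to the same RNA, they measure the scatter between spots and not independent support. SLC25A26, the S-adenosylmethionine carrier, was between 0.02 and 0.06 on its 5 probes. SLC25A37 (mitoferrin-1), which carries iron for heme and iron-sulfur clusters, had a mean near 0 (-0.00) made of ratios of 0.27, -0.02, 0.03 and -0.30. All 5 of its probes shared this pattern, lying between 0.15 and 0.40 on array 1 and between -0.39 and -0.30 on array 4. SLC25A46, a protein of the outer membrane, had 2 probes with means of 0.02 and 0.23, and SLC25A24 had 2 with means of -0.12 and -0.002, none of which passed. SLC25A28 (mitoferrin-2) had ratios of 0.14, 0.07, -0.05 and -0.01 (mean 0.04, adjusted p = 0.683).

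**Figure D3:**
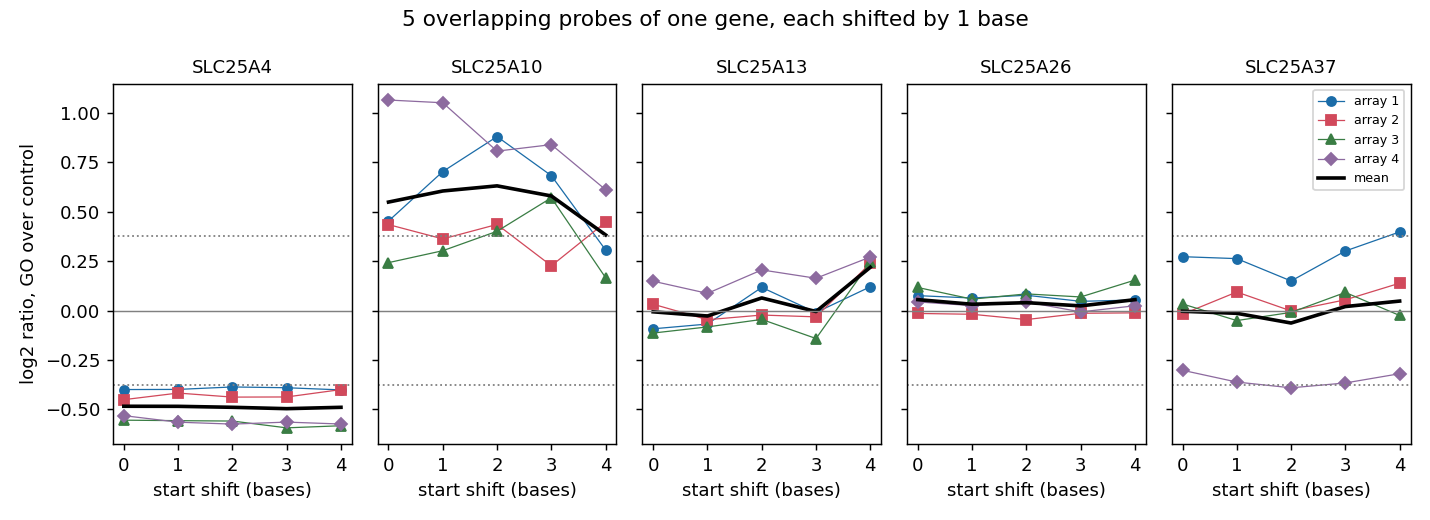
Log2 ratio, GO-treated over control (y axis), for the 5 overlapping probes of each of 5 carrier genes, ordered by the shift of their start along the transcript in bases (x axis), with 1 colored line per array and a black line for the mean. Dotted lines mark a fold change of 1.3. SLC25A4 is flat, the mean of SLC25A10 stays above the upper dotted line, and the mean of SLC25A13 reaches 0.22 at shift 4 only.

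No uncoupling protein or close relative passed, with 4 of 5 tested and 1 (SLC25A30) at an unadjusted p under 0.05. UCP2 had ratios of -0.12, -0.06, 0.05 and -0.46 (mean -0.14, SD 0.22, 95% interval -0.36 to 0.07, adjusted p = 0.299), and its GO channel cleared background on 3 arrays. UCP3, the skeletal muscle form, was well above background on no array in either channel, and its deposited ratio was 0 on all 4. No probe named UCP1 was analysed. The brain-enriched relatives SLC25A14 and SLC25A27 and the kidney-enriched SLC25A30 had means of -0.06, 0.17 and 0.23. SLC25A30 was above 0 on all 4 arrays but missed the threshold (adjusted p = 0.0909).

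None of 7 tested carriers of cofactors and other nucleotides passed, 1 having an unadjusted p under 0.05. The pyrimidine nucleotide carrier SLC25A33 differed between arrays in direction, at -0.39, -0.06, 0.34 and 0.26. SLC25A51, the NAD carrier, whose probe is described in the files only as an uncharacterized protein, was the steadiest, between -0.02 and 0.00 on all 4 arrays. This held for its brightest probe, while its other probe ran from -0.08 to 0.04 (SD 0.05). The glutathione carrier SLC25A39 was 0.49 on array 1 and -0.03 to 0.10 on the others. None of 4 tested carriers of other or uncertain substrate passed, adjusted or not, with means from -0.17 to 0.02.

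For 10 genes no test was made, and the ratios given above for 2 of them, SLC25A25 and SLC25A31, are those of dim probes. SLC25A22, SLC25A41, SLC25A42, SLC25A48, SLC25A53 and UCP3 were well above background on no array, and SLC25A25, SLC25A29, SLC25A31 and SLC25A45 on some. Of the 33 tested, 28 were well above background on all 4 arrays in both channels.

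The values of the SLC25A4, SLC25A5 and SLC25A3 probes depended on the dye normalization. Their mean log2 processed signals were 14.3, 14.5 and 14.7. The deposited ratios include a lowess correction of the dye bias along signal. When background-subtracted signals were instead centred on the median of each array without lowess, SLC25A4 was -0.26 (adjusted p = 0.0282), still lower but under the fold threshold. SLC25A5 turned to 0.09 and SLC25A3 rose by 0.39 (adjusted p = 0.00968). The calls were then 3 higher and 0 lower (SLC25A1, SLC25A10 and SLC25A3), in place of 2 higher and 1 lower. With normexp background correction and loess, SLC25A4 was -0.52 (adjusted p = 0.00168) and the only call. SLC25A1 was then 0.34, below the fold threshold, and SLC25A10 0.23 (adjusted p = 0.09). The order of SLC25A4, SLC25A5 and SLC25A3, from lowest to highest, was the same under all 3 normalizations. Their signals lie close together, so a correction along signal shifts them alike, and the order does not test the normalization.

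**Figure D4:**
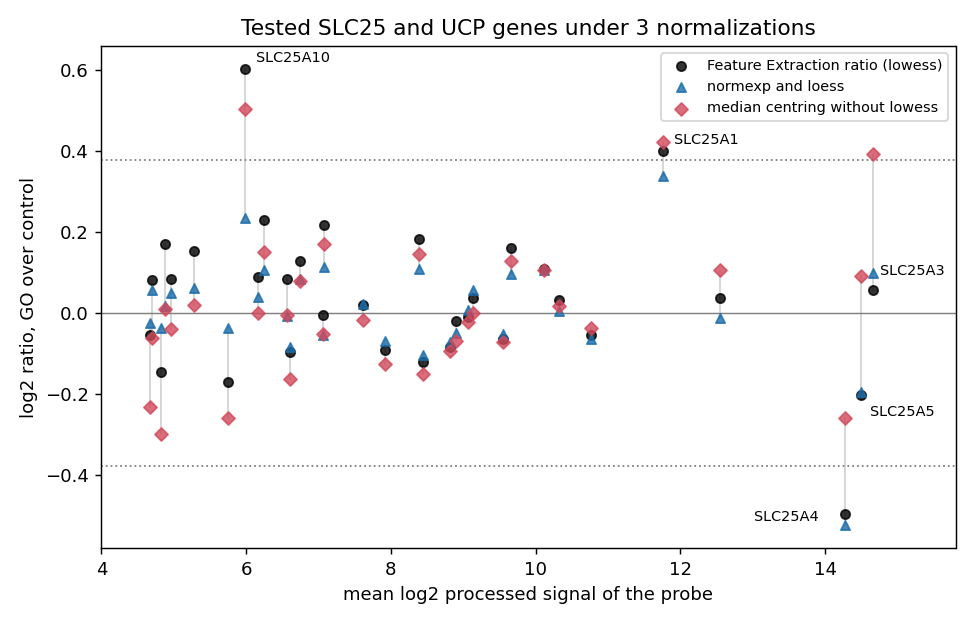
Log2 ratio, GO-treated over control (y axis), against the mean log2 processed signal of the probe (x axis) for the 33 tested genes, each with the deposited ratio (black), normexp with loess (blue) and median centring without lowess (red), joined by a grey line. Dotted lines mark a fold change of 1.3. The red points of SLC25A3, SLC25A5 and SLC25A4, at signals above 14, lie above the black ones, and the blue point of SLC25A10 lies below its black one.

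Genes that work beside the carriers were taken from 6 lists of 58 gene symbols, some being other names of the same gene. Of these symbols, 44 could be tested. Of the 44, 5 passed both thresholds, beside 8.7% of all genes tested. SFXN1 and NRF1 rose, GOT1 and GPD1 fell, and GPD2 passed without being well above background in the GO channel. GOT1, GPD1 and GPD2 were among 10 enzymes of the metabolite shuttles, and only GOT1 was well above background in both channels on all 4 arrays. GPD1 and GPD2 met the filter through the control channel alone, where they are brighter. Their count is therefore no support for a fall of the shuttle enzymes. Over all genes tested, 5.37% passed as lower. GOT1, the cytosolic aspartate aminotransferase of the malate-aspartate shuttle, had ratios of -0.07, -0.46, -0.58 and -0.61 (mean -0.43, SD 0.25, adjusted p = 0.0319). GPD1, the cytosolic enzyme of the glycerol phosphate shuttle, had ratios of -0.11, -0.53, -1.32 and -0.84 (mean -0.70, SD 0.51, adjusted p = 0.0422), with only 2 arrays above background in the GO channel. With normexp and loess GPD1 was -0.19 (adjusted p = 0.0831) and did not pass. Array 1 was nearest to 0 in both. GPD2, the mitochondrial enzyme of that shuttle, had ratios of -0.23, -1.32, -1.41 and -1.64 and passed the test (limma, adjusted p = 0.0181). On no array was its GO channel well above background, so that neither a fall nor a fold is established.

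The other enzymes of the malate-aspartate shuttle did not pass both thresholds. MDH2, the mitochondrial malate dehydrogenase, had ratios of -0.35, -0.35, -0.31 and -0.39 (mean -0.35, SD 0.03, adjusted p = 0.0105), close together but under the fold threshold. The authors list MDH2 among their lower genes, with a fold change given as 1.3, beside 1.27 here. MDH1, the cytosolic form, had ratios of -0.14, -0.20, -0.23 and -0.28 (mean -0.21, adjusted p = 0.0465). Without lowess both moved towards 0, MDH2 to -0.11 and MDH1 to -0.003. GOT2, the mitochondrial aminotransferase, had ratios of 0.44, 0.19, 0.12 and 0.01 (mean 0.19, adjusted p = 0.147).

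Among 11 tested channels and carriers of other families, SFXN1, the mitochondrial serine transporter, rose, with ratios of 0.53, 0.39, 0.46 and 0.23 (mean 0.40, SD 0.13, adjusted p = 0.0141). Of 7 tested regulators of mitochondrial biogenesis NRF1 rose, with ratios of 0.40, 0.73, 0.44 and 0.86 (mean 0.61, SD 0.22, adjusted p = 0.00972). The NRF1 probe was dim, with processed signals of 26.4, 22.8, 30.3 and 19.9 in control cells and 34.9, 37.8, 41.0 and 36.2 in GO-treated cells. With normexp and loess, SFXN1 was 0.28 (limma, adjusted p = 0.0112) and NRF1 0.21 (adjusted p = 0.0614), both under the fold threshold. None of 9 components of the import of carrier proteins passed in limma, with 3 at an unadjusted p under 0.05 and a range of -0.15 to 0.18. None of 5 genes of the carnitine system passed, nor did the relatives MTCH1 and MTCH2, and these 7 had no unadjusted p under 0.05.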

How the data were processed

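RNA of GO-treated (Cy5) and control cells (Cy3) was compared on 4 horse arrays, all on 1 slide, so that no slide effect could be estimated. The authors extracted the scans with Feature Extraction, whose version is 10.10.1.1 in the file headers and another in the methods. The deposited intensity values are mean and background signals, background-subtracted signals and processed signals after linear and lowess dye normalization. The deposited log10 ratios are those of the processed Cy5 over Cy3 signals. The 4 columns of a table of the whole series were not used.

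Ratios were converted to log2, control spots and outlier-marked spots were left out, and spots of repeated probes were averaged. A probe was tested if every array showed it well above background in GO-treated cells, or every array did in control cells (26832 probes, 58 of them of members). A two-sided limma test (version 3.58.1, R 4.3.3) set the 4 log2 ratios against 0, with Benjamini-Hochberg adjustment over all probes tested. The test was tried on simulated data. As in the methods, the limits were 0.05 for the adjusted p and 1.3 for the fold change. The authors used other software, and at these limits they list far fewer genes than the 788 of 9058 called here. The calls are therefore not those of the authors, and the reason for the difference was not tested. The 4 arrays limit the precision. The channels of an array deviated together (correlations of 0.484 to 0.862), and the ratio pairs them by their shared array.

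Values on each array are given for members past either rule and, whatever their values, for the ADP/ATP, phosphate, ATP-Mg, uncoupling, malate-aspartate, citrate, carnitine and iron carriers, and for the partner genes past both thresholds and the shuttle enzymes MDH1, MDH2, GOT1 and GOT2. SLC25A30, SLC25A33, SLC25A39, SLC25A51 and other single genes were picked after their values were seen. Members and lists were chosen with earlier results of these data known. The values of 1 member and the probe sequence of another are not reported here. Probe positions are those of the files, and the EquCab1 genome and its annotation were not used here. Alternatives covered the normalization, the filter, the test, weights of the arrays, the pairing, the probe chosen and each array left out.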

Additional observations from a re-analysis of the deposited data

How the results depend on the processing

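The count of 3 carrier genes past both thresholds became 1 with normexp and loess, 1 without the filter on dim probes, 0 with a plain test of each probe's own spread (6 genes at an unadjusted p under 0.05) and 0 in limma without the pairing of channels by array (no replicate block, 1 gene). It was 1 to 3 with each array left out. Without array 1 or array 2 it was 1 (SLC25A4), and without array 3 it was 2. SLC25A4 passed in every run that left out an array, at -0.53 to -0.46, but had an adjusted p of 0.0666 in the plain test and 0.0959 without the block. The median log2 ratio of the carriers, 0.04, was 0.0080 with normexp and loess and -0.0040 without lowess, and 0.018 to 0.048 with each array left out. The count of 5 partner genes was 1 with normexp and loess (GOT1), 0 without the filter (19 unadjusted), 3 where both channels had to be above background, 0 in the plain test (15) and 0 without the replicate block (8). It was 0 to 4 with each array left out, being 0 without array 2 (10 unadjusted), 1 without array 3 and 3 without array 4. Over all genes the 788 calls became 359 with normexp and loess, 263 without the filter, 38 in the plain test and 105 without the block, and 480 (without array 3) to 778 with each array left out, 501 without array 2.

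Some values changed sign. With each array left out, SLC25A11 ran from -0.132 to 0.0027 (without array 4), the probe named SLC25A20 (described as PRKAR2A) from -0.102 (without array 4) to 0.192, and SLC25A3 from -0.014 (without array 1) to 0.097. SLC25A37 ran from -0.096 to 0.096, being 0.0011 without array 2 and 0.096 without array 4. Without lowess SLC25A20 was -0.061 and SLC25A5 0.093, and with normexp and loess SLC25A28 was -0.011. Among the other members SLC25A38 (-0.0040), SLC25A44 (-0.040) and SLC25A46 (-0.018) also turned without lowess, and SLC25A38 (-0.0056) and SLC25A51 (0.0080) with normexp and loess. The cause was not tested. Array centring, an intensity trend in the prior and the choice of probe among those of a gene kept the carrier count at 3. With arrays weighted by quality (0.53 for array 1) the count was 2, SLC25A1 being 0.33, under the fold threshold. Dim probes such as SLC25A10, SLC25A20, UCP2, NRF1 and PDGFRA lie close to background, which limits their precision.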

Other observations

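Some probes of the family carry other gene names in the array files. A probe that the RefSeq table pairs with SLC25A43 had log2 ratios of 0.34, 0.02, 0.15 and 0.12, above 0 on all 4 arrays, with a mean of 0.16 (SD 0.13, limma, adjusted p = 0.16). A probe for a predicted transcript resembling aralar, a carrier of aspartate and glutamate, had ratios of -0.09, -0.09, -0.38 and -0.35 (mean -0.23, SD 0.16, adjusted p = 0.0826), below 0 on all 4. The 5 probes described as SLC25A18, a glutamate carrier, and the probe described as SLC25A2, an ornithine carrier, were too dim to be tested.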
